A study of Homo sapiens with 8 samples.

Results

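The erythropoietin-producing hepatocellular (Eph) receptors and their ephrin ligands were followed through 8 RNA-seq libraries of 2 human breast epithelial lines. Members were taken by gene symbol from the deposited expression table, from a set of 10 that held the receptors *EPHA1*, *EPHA2*, *EPHA4*, *EPHB2*, *EPHB3*, *EPHB4* and *EPHB6* and the ligands *EFNA1*, *EFNB1* and *EFNB2*. Of the 10, 9 were found among the 13842 genes of the table, and *EPHB6* was not analysed here. The symbols were chosen with earlier results of these libraries known.

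Eph receptors form the largest family of receptor tyrosine kinases. They bind ephrins that are held on the membrane of a neighbouring cell, so that contact between cells sends a forward signal through the receptor and a reverse signal through the ligand. A-type ephrins carry a lipid anchor, B-type ephrins span the membrane, and each type mostly binds receptors of its own class, with *EPHA4* as the receptor best known for binding both. The pathway is known for cell repulsion, boundary formation and the patterning of ducts and vessels, and in the mammary gland *EPHA2* with *EFNA1*, and *EPHB4* with *EFNB2*, are the best studied pairs.

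The study asked what the long non-coding RNA *MALINC1* changes in normal and premalignant breast cells. MCF10A, a non-tumorigenic breast epithelial line, and DCIS.COM, a line of the MCF10A lineage that models ductal carcinoma in situ, had each been stably transduced with a lentiviral vector that carried full-length *MALINC1* (pLOC-*MALINC1*) or with the vector alone (pLOC-empty), and all cells had been selected in blasticidin. The 4 groups held 2 libraries each, named here replicate 1 and replicate 2. No source used here says that the replicates came from separate transductions or cultures, so the p-values measure the spread between these libraries, which may be technical. According to the methods, MCF10A medium held epidermal growth factor, hydrocortisone, insulin and cholera toxin besides horse serum and the DCIS.COM medium held horse serum alone, so line and medium cannot be told apart.

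The libraries held 20604377 to 37550457 reads on genes, and the 2 replicates of a group differed by at most 1.19-fold for any member, with a median of 1.05-fold. Levels are given in CPM, the count of a gene scaled to the size of its library, and a log2 fold change is the difference of the deposited log2 CPM values, which carry a small added constant of 0.0713 CPM. The targeted RNA followed its labels. *MALINC1* had 29 and 34 reads in MCF10A pLOC-empty, where replicate 2 stood at 1.51 CPM, and 475 and 311 reads or 13.2 and 11.7 CPM in MCF10A pLOC-*MALINC1*. In DCIS.COM it stood at 1.35 and 1.15 CPM with pLOC-empty and at 24.5 and 19.2 CPM with pLOC-*MALINC1*. Its log2 fold change was 3.27 ± 0.19 (SE) in MCF10A and 4.04 ± 0.19 (SE) in DCIS.COM.

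Cell type markers were read beside the members. All 7 basal and general epithelial markers looked for were detected, namely *KRT5*, *KRT14*, *KRT17*, *TP63*, *KRT6A*, *EPCAM* and *CDH1*. *EPCAM* and *CDH1* are not specific to basal cells. The summed level of the 7 was 27136 to 27162.8 CPM in MCF10A pLOC-empty and 35272.5 to 36446.7 CPM in MCF10A pLOC-*MALINC1*. It was 2688 to 2740 CPM in DCIS.COM pLOC-empty and 2925 to 3034 CPM in DCIS.COM pLOC-*MALINC1*. In MCF10A pLOC-empty most of the sum came from *KRT17*, *KRT6A* and *KRT5*, at means of 9985, 8865 and 6149 CPM. Of these 7 markers, 6 were higher with pLOC-*MALINC1* in MCF10A (limma, adjusted p below 0.01), most of all *TP63*, at 3.04 on the log2 scale. Between the lines 5 were lower and 2 higher in DCIS.COM, under either vector. Of all genes, 37.9% were higher and 36.0% lower with pLOC-empty, and 35.7% and 37.2% with pLOC-*MALINC1*. The 2 higher ones, against the summed level, were *TP63* (3.51 with pLOC-empty and 0.28 with pLOC-*MALINC1*) and *EPCAM* (2.17 and 1.61). In DCIS.COM, 2 of the 7 rose with pLOC-*MALINC1* (*KRT5* and *CDH1*, at 0.38 and 0.59 on the log2 scale) and 2 fell (*KRT14* and *KRT17*, at -0.59 and -0.27). Of 7 luminal markers, 6 had values and summed to 1290 to 1387 CPM in MCF10A pLOC-empty, 1564 to 1655 CPM in MCF10A pLOC-*MALINC1*, 3454 to 3502 CPM in DCIS.COM pLOC-empty and 3252 to 3329 CPM in DCIS.COM pLOC-*MALINC1*. With pLOC-*MALINC1*, 2 of the 6 rose and 1 fell in MCF10A, and 2 rose and 0 fell in DCIS.COM (limma, adjusted p below 0.01). The same test called 21.5% of all genes higher and 18.1% lower in MCF10A, and 16.4% and 16.7% in DCIS.COM. With only 6 genes, these luminal counts do not stand apart from those shares. Between the lines, 3 of the 6 were higher and 0 lower in DCIS.COM with pLOC-empty, and 5 and 0 with pLOC-*MALINC1*. Of the others, 1 fibroblast marker of 7 (*COL1A1*), 1 endothelial marker of 5 (*PECAM1*) and 2 leukocyte markers of 5 (*CD68* and *CD14*) had values, with summed levels of at most 15.9, 7.21 and 14.3 CPM. Single markers of both lists thus differed between the lines and with the vector, not all in the same direction. The part of the markers in the results below was not tested. In bulk libraries such as these, fewer cells of a type and less RNA per cell cannot be told apart.

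Promoter sequences are shown for 3 members, *EFNB1* and *EFNB2* because both ligands rose in MCF10A pLOC-*MALINC1*, and *EPHB3* because it rose in DCIS.COM pLOC-*MALINC1*. Each is the 250 bases before the transcription start in RefSeq (GRCh38.p14), read 5′ to 3′ along the gene, and each matched GRCh37, the build behind the deposited table, at 1 place, which gives the coordinates. Capitals mark the GC box motif GGGCGG, in either orientation. They also mark, again in either orientation, the motifs of the CCAAT box, spelled as its name, and of the TATA box, which is searched as TATAAA. In *EPHB3* the first GC box and the CCAAT box share bases.
EFNB1 promoter, chrX:68048614-68048863, plus strand: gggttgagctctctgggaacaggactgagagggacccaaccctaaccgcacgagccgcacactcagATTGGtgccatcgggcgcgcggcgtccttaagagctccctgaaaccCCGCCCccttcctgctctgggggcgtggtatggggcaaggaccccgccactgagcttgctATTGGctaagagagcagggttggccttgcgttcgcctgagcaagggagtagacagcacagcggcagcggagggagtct
EFNB2 promoter, chr13:107188011-107188260, minus strand: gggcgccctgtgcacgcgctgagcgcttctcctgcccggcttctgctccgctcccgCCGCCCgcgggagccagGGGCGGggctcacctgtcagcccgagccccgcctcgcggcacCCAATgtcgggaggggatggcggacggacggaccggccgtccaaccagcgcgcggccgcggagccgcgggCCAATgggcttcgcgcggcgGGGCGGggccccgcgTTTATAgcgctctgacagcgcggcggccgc
EPHB3 promoter, chr3:184279323-184279572, plus strand: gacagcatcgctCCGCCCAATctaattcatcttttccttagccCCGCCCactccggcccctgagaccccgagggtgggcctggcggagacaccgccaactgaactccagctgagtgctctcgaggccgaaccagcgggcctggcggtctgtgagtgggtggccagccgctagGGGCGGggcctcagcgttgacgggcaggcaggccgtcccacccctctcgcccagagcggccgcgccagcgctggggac

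All 9 members had a RefSeq promoter, and 6 motifs were searched on both strands of the 300 bases from 250 before to 50 after the start. GC boxes were found in 9 of the 9, against 69.3% of the 10704 promoters of genes in the table. CCAAT boxes were found in 5 of the 9, namely *EFNB1*, *EFNB2*, *EPHB3*, *EPHA1* and *EPHB4*, against 37.0% of all promoters. The TATA box motif was found in *EFNB2* alone of the 9, starting 30 bases before the transcription start, against 6.15% of all promoters. It lies there on the opposite strand, reading TTTATA along the gene. The cyclic AMP response element (TGACGTCA) was found in *EPHA2* alone, against 3.31%. The AP-1 element (TGANTCA, 4.81% of all promoters) and the E-box CACGTG (10.1%) were found in none of the 9. The 250 bases before the start held 43.2% (*EPHA4*) to 84.8% (*EPHB2*) G and C, with a median of 64.8% over all promoters. A match is only a match of letters, and a missing match says only that the letters are not in this window.

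**Figure D1:**
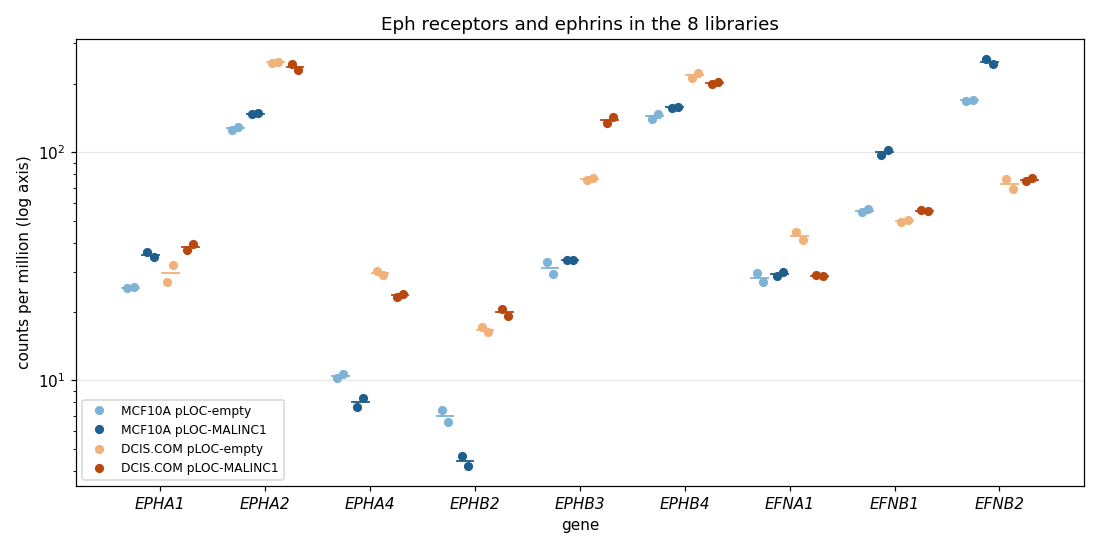
CPM of the 9 members in the 8 libraries, on a log axis, with 1 point per library, 2 libraries per group, and a line at the group mean. *EFNB2* and *EFNB1* are highest in MCF10A pLOC-*MALINC1* (244 to 256 and 97.7 to 103 CPM), and *EPHB3* is highest in DCIS.COM pLOC-*MALINC1* (135 to 142 CPM).

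In MCF10A, *MALINC1* overexpression went with higher ephrin-B ligands and lower *EPHB2* and *EPHA4*. Of the 9 members, 4 rose (*EFNB1*, *EFNB2*, *EPHA1* and *EPHA2*) and 2 fell (*EPHB2* and *EPHA4*) at an adjusted p below 0.01 (limma across all genes, Benjamini-Hochberg). The same test called 21.5% of all 13842 genes higher and 18.1% lower. None of the 9 changed by more than 2-fold, the size that together with that adjusted p made a differentially expressed gene (DEG) in the study, while 2.99% of all genes were DEGs with higher and 2.51% DEGs with lower levels. The members' median log2 fold change was 0.13, against 0.00 over all genes.

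In DCIS.COM, *EPHB3* rose and *EFNA1* fell by the largest amounts among the members. Of the 9 members, 3 rose (*EPHB3*, *EPHA1* and *EFNB1*) and 2 fell (*EFNA1* and *EPHA4*), where the test called 16.4% of all genes higher and 16.7% lower. Again 0 of the 9 were DEGs, against 1.44% of all genes as higher and 3.08% as lower DEGs. The median log2 fold change was 0.06 over the members and 0.01 over all genes. The count in DCIS.COM was the least firm, since it lay between 2 and 3 of 9 when any one of the 4 DCIS.COM libraries was left out.

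Leaving out a library ended the following calls. *EFNB1* in DCIS.COM was lost without any one of the 8 libraries, *EPHA4* in DCIS.COM without any one of the 4 DCIS.COM libraries, *EPHA1* in DCIS.COM without pLOC-empty replicate 1 or pLOC-*MALINC1* replicate 2, and *EPHA4* in MCF10A without pLOC-empty replicate 2 or pLOC-*MALINC1* replicate 1.

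**Figure D2:**
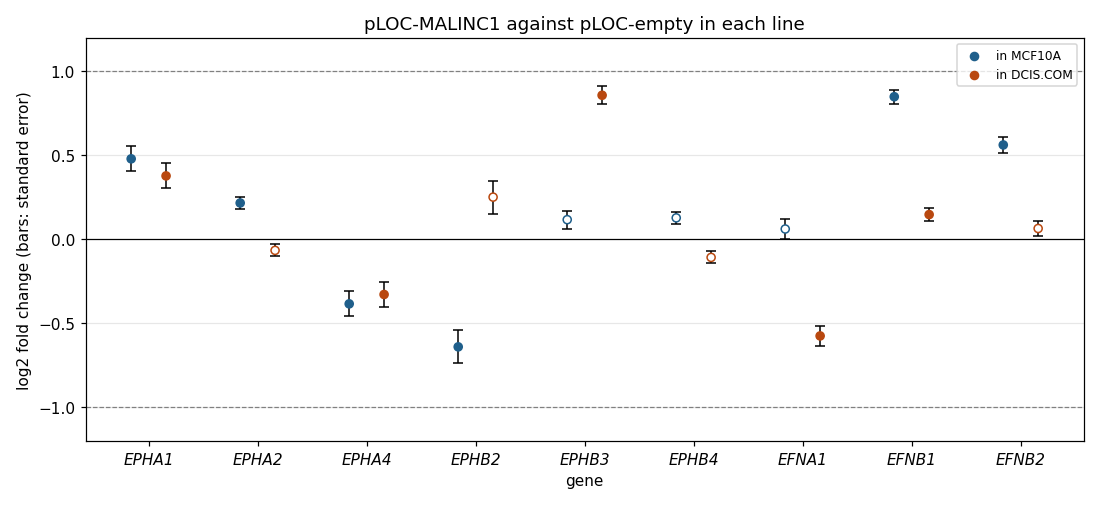
Log2 fold change of pLOC-*MALINC1* over pLOC-empty for each member in either line, bars giving the standard error; filled points passed an adjusted p of 0.01 and dashed lines mark 2-fold. *EFNB1* (0.85) and *EFNB2* (0.56) stand highest in MCF10A, and *EPHB3* (0.86) stands highest in DCIS.COM.

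Ephrin-B1 is a transmembrane ligand of EphB receptors and its gene lies on the X chromosome. *EFNB1* (Entrez gene 1947, GRCh37 chrX:68048864-68062003, plus strand, 5 exons in the canonical transcript) measured 54.9 and 56.1 CPM in MCF10A pLOC-empty and 97.7 and 103 CPM in MCF10A pLOC-*MALINC1*. The DCIS.COM libraries held 49.7 and 50.4 CPM with pLOC-empty and 55.7 and 55.2 CPM with pLOC-*MALINC1*. Both MCF10A pLOC-*MALINC1* libraries lay far above the other 6, and the groups did not overlap in either line. The log2 fold change was 0.85 ± 0.04 (SE, adjusted p = 7.34e-09) in MCF10A, a 1.80-fold rise. In DCIS.COM it was 0.15 ± 0.04 (SE, adjusted p = 0.00995). The DCIS.COM call sat at the edge of the threshold, and its adjusted p was 0.0232 with quantile normalization and 0.0150 with voom weights. It was lost when any one of the 8 libraries was left out, at adjusted p values from 0.0110 to 0.0516 (limma).

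Ephrin-B2 is the preferred ligand of *EPHB4* and a marker of arterial endothelium in vessels. *EFNB2* (Entrez gene 1948, chr13:107142093-107188010, minus strand, 5 exons) measured 168 and 170 CPM in MCF10A pLOC-empty and 256 and 244 CPM in MCF10A pLOC-*MALINC1*. DCIS.COM libraries held 76.2 and 68.9 CPM with pLOC-empty and 74.8 and 76.8 CPM with pLOC-*MALINC1*. MCF10A pLOC-*MALINC1* was the highest group and the groups of MCF10A did not overlap, while those of DCIS.COM did. MCF10A showed a log2 fold change of 0.56 ± 0.05 (SE, adjusted p = 8.58e-07). The DCIS.COM value was 0.06 ± 0.05 (SE, adjusted p = 0.276). *EFNB2* exons overlap a non-coding gene on the opposite strand over 1812 bases in GENCODE, and reads of the 2 genes cannot be told apart where the counting ignored strand, a setting that is not given in the sources used here.

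Ephrin-A1 is a lipid-anchored ligand of EphA receptors, *EPHA2* above all. *EFNA1* (Entrez gene 1942, chr1:155100352-155107375, plus strand, 5 exons) measured 29.4 and 26.9 CPM in MCF10A pLOC-empty and 28.8 and 30.0 CPM in MCF10A pLOC-*MALINC1*. DCIS.COM cells had 44.7 and 41.2 CPM with pLOC-empty and 29.0 and 28.6 CPM with pLOC-*MALINC1*. The DCIS.COM pLOC-empty libraries stood above the other 6, which lay together. The log2 fold change was 0.06 ± 0.06 (SE, adjusted p = 0.420) in MCF10A, where the groups overlapped, and the sign changed to -0.0040 without pLOC-empty replicate 2. In DCIS.COM it was -0.57 ± 0.06 (SE, adjusted p = 9.69e-06), the largest fall of a member in that line.

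*EPHB2* and *EPHB3* encode receptors best known for placing cells along the intestinal crypt, where both are targets of Wnt signaling. *EPHB3* (Entrez gene 2049, chr3:184279573-184300196, plus strand, 16 exons) measured 33.0 and 29.4 CPM in MCF10A pLOC-empty and 33.8 and 33.7 CPM in MCF10A pLOC-*MALINC1*. Levels in DCIS.COM were 75.6 and 77.0 CPM with pLOC-empty and 135 and 142 CPM with pLOC-*MALINC1*. The 4 DCIS.COM libraries were all above the 4 of MCF10A, and the groups of DCIS.COM did not overlap. MCF10A showed a log2 fold change of 0.12 ± 0.05 (SE, adjusted p = 0.0846). The DCIS.COM value was 0.86 ± 0.05 (SE, adjusted p = 9.27e-08), a 1.81-fold rise and the largest among the members in that line.

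*EPHB2* (Entrez gene 2048, chr1:23037332-23247993, plus strand, 16 exons) measured 7.38 and 6.55 CPM in MCF10A pLOC-empty and 4.65 and 4.23 CPM in MCF10A pLOC-*MALINC1*. For DCIS.COM the values were 17.1 and 16.2 CPM with pLOC-empty and 20.6 and 19.1 CPM with pLOC-*MALINC1*. The vector groups did not overlap in either line and stood in opposite order. The log2 fold change was -0.64 ± 0.10 (SE, adjusted p = 0.000164) in MCF10A, the largest fall of a member in that line. In DCIS.COM it was 0.25 ± 0.10 (SE, adjusted p = 0.0534), which did not pass.

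*EPHB4* is the receptor of ephrin-B2 and marks venous endothelium in vessels. *EPHB4* (Entrez gene 2050, chr7:100400187-100425145, minus strand, 17 exons) measured 140 and 147 CPM in MCF10A pLOC-empty and 157 and 158 CPM in MCF10A pLOC-*MALINC1*. The DCIS.COM libraries held 212 and 223 CPM with pLOC-empty and 200 and 203 CPM with pLOC-*MALINC1*. The 4 DCIS.COM libraries lay above the 4 of MCF10A, and the vector groups lay close to each other without overlap. MCF10A showed a log2 fold change of 0.13 ± 0.04 (SE, adjusted p = 0.0103), just above the 0.01 threshold, and 5 of the 8 alternatives that kept all libraries called it, with adjusted p of 0.00707 to 0.00877. The DCIS.COM value was -0.11 ± 0.04 (SE, adjusted p = 0.0288). Its exons overlap *SLC12A9* on the opposite strand by 69 bases.

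EphA2 is the EphA receptor most often described in breast cancer, where it is studied as a receptor of *EFNA1*. *EPHA2* (Entrez gene 1969, chr1:16450832-16482564, minus strand, 17 exons) measured 125 and 129 CPM in MCF10A pLOC-empty and 147 and 149 CPM in MCF10A pLOC-*MALINC1*. In DCIS.COM it measured 247 and 249 CPM with pLOC-empty and 243 and 231 CPM with pLOC-*MALINC1*. The 4 DCIS.COM libraries were the highest, and the small difference between vectors was without overlap in both lines. The log2 fold change was 0.22 ± 0.04 (SE, adjusted p = 0.000258) in MCF10A. In DCIS.COM it was -0.07 ± 0.04 (SE, adjusted p = 0.150).

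*EPHA1* and *EPHA4* were the members that moved the same way in both lines at the threshold, beside *EFNB1*. EphA1 was the first receptor of the family to be cloned and gave it its name. *EPHA1* (Entrez gene 2041, chr7:143087382-143105949, minus strand, 18 exons) measured 25.4 and 25.6 CPM in MCF10A pLOC-empty and 36.5 and 34.8 CPM in MCF10A pLOC-*MALINC1*. In DCIS.COM it measured 26.96 and 32.2 CPM with pLOC-empty and 37.1 and 39.5 CPM with pLOC-*MALINC1*. The 4 pLOC-*MALINC1* libraries all lay above the 4 pLOC-empty libraries, although the DCIS.COM pLOC-empty replicates differed by 1.19-fold, the widest gap of any member. MCF10A showed a log2 fold change of 0.48 ± 0.07 (SE, adjusted p = 0.000175). The DCIS.COM value was 0.38 ± 0.07 (SE, adjusted p = 0.00123).

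EphA4 binds ephrins of both classes and is best known from axon guidance. *EPHA4* (Entrez gene 2043, chr2:222282747-222438922, minus strand, 18 exons) measured 10.2 and 10.7 CPM in MCF10A pLOC-empty and 7.66 and 8.35 CPM in MCF10A pLOC-*MALINC1*. In DCIS.COM it measured 30.3 and 28.9 CPM with pLOC-empty and 23.1 and 24.0 CPM with pLOC-*MALINC1*. Each line had its 2 pLOC-*MALINC1* libraries below its 2 pLOC-empty libraries. The log2 fold change was -0.38 ± 0.08 (SE, adjusted p = 0.00102) in MCF10A. In DCIS.COM it was -0.33 ± 0.08 (SE, adjusted p = 0.00350).

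Whether the *MALINC1* effect itself differed between the lines was tested as the DCIS.COM log2 fold change minus the MCF10A one, in the same limma fit. For 7 of the 9 members the effects differed, 2 toward a more positive effect in DCIS.COM and 5 toward a more negative one, where the test called 15.6% of all genes in the first direction and 20.3% in the second. None of the members differed by more than 2-fold, against 3.98% and 5.22% of all genes. The more positive ones were *EPHB2*, with a difference of 0.89 ± 0.14 (SE, adjusted p = 0.000208), and *EPHB3*, with 0.74 ± 0.08 (SE, adjusted p = 6.53e-06). *EFNB1* had a difference of -0.70 ± 0.06 (SE, adjusted p = 8.94e-07) and *EFNB2* of -0.50 ± 0.07 (SE, adjusted p = 5.28e-05), so that both ephrin-B ligands rose more in MCF10A. *EFNA1* had a difference of -0.64 ± 0.09 (SE, adjusted p = 6.89e-05). Smaller differences were those of *EPHA2*, at -0.28 ± 0.05 (SE, adjusted p = 0.000541), and *EPHB4*, at -0.24 ± 0.05 (SE, adjusted p = 0.00230). That of *EPHB4* did not pass without MCF10A pLOC-empty replicate 1, MCF10A pLOC-*MALINC1* replicate 2, DCIS.COM pLOC-empty replicate 2 or DCIS.COM pLOC-*MALINC1* replicate 1, with adjusted p of 0.0141, 0.0102, 0.0138 and 0.0111. With all libraries kept, it did not pass with quantile normalization (-0.17, adjusted p = 0.0119). It also did not pass with plain library sizes, which left out the signal recognition particle RNAs and the authors' scaling factors (-0.16, adjusted p = 0.0184). For *EPHA1* the difference was -0.10 ± 0.10 (SE, adjusted p = 0.447) and for *EPHA4* it was 0.06 ± 0.11 (SE, adjusted p = 0.691), and neither passed.

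Between the lines, the 3 EphB receptors, *EPHA2* and *EPHA4* were higher and the ephrin-B ligands lower in DCIS.COM under either vector, the fall of *EFNB1* with pLOC-empty being small and not firm. With pLOC-empty, 6 of the 9 members were higher in DCIS.COM and 2 lower at an adjusted p below 0.01, where 37.9% of all genes were higher and 36.0% lower. As DEGs, *EPHA4*, *EPHB3* and *EPHB2* were higher and *EFNB2* lower, that is 3 and 1 of 9, against 15.6% and 13.0% of all genes. With pLOC-*MALINC1*, 5 members were higher and 2 lower, against 35.7% and 37.2% of all genes, and the DEGs were again *EPHA4*, *EPHB3* and *EPHB2* as higher and *EFNB2* as lower, against 14.4% and 12.2%. The line comparisons share no library with each other, but each shares its libraries with the *MALINC1* comparisons above, so the values are set side by side and are not separate evidence.

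**Figure D3:**
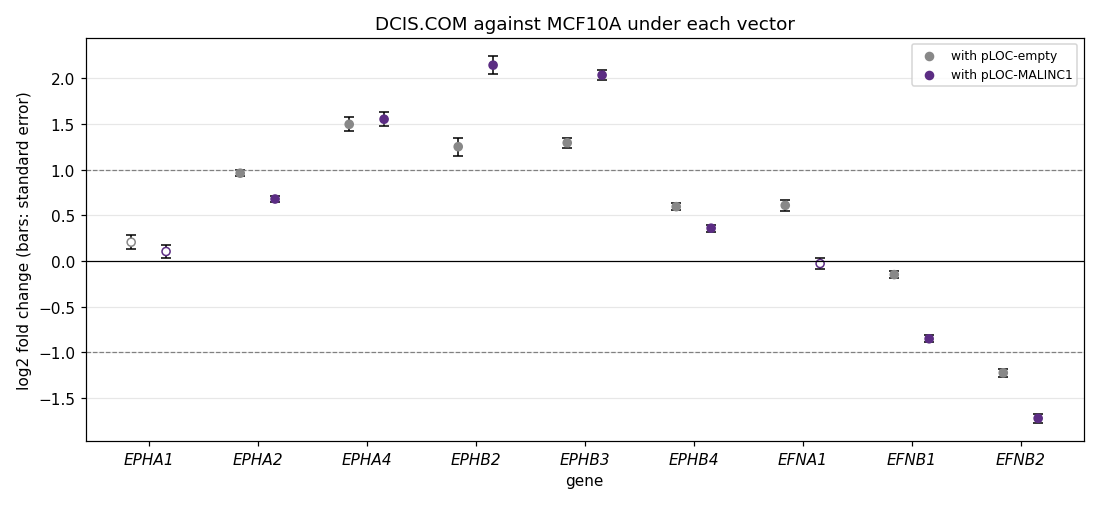
Log2 fold change of DCIS.COM over MCF10A for each member under either vector, bars giving the standard error; filled points passed an adjusted p of 0.01 and dashed lines mark 2-fold. *EPHB2* and *EPHB3* go from 1.25 and 1.29 with pLOC-empty to 2.14 and 2.03 with pLOC-*MALINC1*, and *EFNB2* lies lowest, at -1.22 and -1.72.

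Among the EphB receptors, *EPHB3* was 2.45-fold higher in DCIS.COM with pLOC-empty, at a log2 fold change of 1.29 ± 0.05 (SE, adjusted p = 1.70e-10). With pLOC-*MALINC1* its log2 fold change was 2.03 ± 0.05 (SE, adjusted p = 3.05e-12). *EPHB2* had 1.25 ± 0.10 (SE, adjusted p = 9.18e-08) with pLOC-empty and 2.14 ± 0.10 (SE, adjusted p = 5.41e-10) with pLOC-*MALINC1*. For both receptors the gap between the lines was thus wider under *MALINC1*, as the difference test above measured. *EPHB4* had 0.59 ± 0.04 (SE, adjusted p = 7.41e-09) with pLOC-empty and 0.36 ± 0.04 (SE, adjusted p = 1.18e-06) with pLOC-*MALINC1*.

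Of the EphA receptors, *EPHA4* had a log2 fold change of 1.495 ± 0.08 (SE, adjusted p = 1.10e-09) with pLOC-empty and 1.55 ± 0.08 (SE, adjusted p = 9.24e-10) with pLOC-*MALINC1*. *EPHA2* had 0.96 ± 0.04 (SE, adjusted p = 5.20e-11) with pLOC-empty, just under 2-fold, and 0.68 ± 0.04 (SE, adjusted p = 1.78e-09) with pLOC-*MALINC1*. *EPHA1* had 0.21 ± 0.07 (SE, adjusted p = 0.0216) and 0.10 ± 0.07 (SE, adjusted p = 0.209), and did not pass under either vector. Without DCIS.COM pLOC-empty replicate 1, the first value was 0.33 (adjusted p = 0.000906) and passed.

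Among the ligands, *EFNB2* was lower in DCIS.COM, at a log2 fold change of -1.22 ± 0.05 (SE, adjusted p = 6.87e-11) with pLOC-empty and -1.72 ± 0.05 (SE, adjusted p = 3.56e-12) with pLOC-*MALINC1*. *EFNB1* had -0.15 ± 0.04 (SE, adjusted p = 0.00449) with pLOC-empty and -0.85 ± 0.04 (SE, adjusted p = 7.51e-10) with pLOC-*MALINC1*. The first of these calls was lost without any one of the 4 pLOC-empty libraries, at -0.17 to -0.13. *EFNA1* was higher in DCIS.COM with pLOC-empty, at 0.61 ± 0.06 (SE, adjusted p = 1.02e-06), and had -0.03 ± 0.06 (SE, adjusted p = 0.686) with pLOC-*MALINC1*, where the groups overlapped. Library scaling touches these values. Plain library sizes left out the 2 signal recognition particle RNA genes, which took 8.22 to 15.7% of the reads. They also left out the authors' scaling factors (0.945 to 1.11). The median of all genes moved from 0.03 to 0.14 with pLOC-empty and from 0.01 to 0.18 with pLOC-*MALINC1*. The parts of the RNAs and of the factors in this were not told apart. Under that scaling *EFNB1* had -0.04 with pLOC-empty and *EFNA1* had 0.15 with pLOC-*MALINC1*, the latter a change of sign, while *EPHA1* passed under both vectors, at 0.31 (adjusted p = 0.00184) and 0.28 (adjusted p = 0.00347). The other members kept sign and call in the line comparisons under that scaling.

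Levels of different genes were compared only per length, as CPM per kilobase of the canonical transcript. In MCF10A pLOC-empty the order began with *EFNB2* at 33.9 ± 0.24, *EPHB4* at 33.1 ± 1.12 and *EPHA2* at 32.3 ± 0.72 CPM per kilobase (SD, n = 2). The mean ± SD of *EPHB4* overlapped those of both others through its own wide SD, while those of *EFNB2* and *EPHA2* did not overlap. *EFNA1* at 18.1 ± 1.17 and *EFNB1* at 16.8 ± 0.27 CPM per kilobase came next, their mean ± SD overlapping. *EPHA1* at 7.71 ± 0.03 and *EPHB3* at 7.36 ± 0.60 CPM per kilobase followed within their spread, and *EPHA4* at 1.64 ± 0.06 and *EPHB2* at 0.631 ± 0.053 CPM per kilobase were lowest. In MCF10A pLOC-*MALINC1*, *EFNB2* led at 50.05 ± 1.70 CPM per kilobase, above *EPHA2* at 37.5 ± 0.46 and *EPHB4* at 36.1 ± 0.16, and *EFNB1* stood at 30.3 ± 1.04. There *EFNA1* at 18.9 ± 0.56, *EPHA1* at 10.8 ± 0.37, *EPHB3* at 7.97 ± 0.0059, *EPHA4* at 1.26 ± 0.08 and *EPHB2* at 0.403 ± 0.027 CPM per kilobase completed the order, without overlap of neighbours.

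In DCIS.COM pLOC-empty, *EPHA2* led at 62.8 ± 0.43 CPM per kilobase, before *EPHB4* at 49.9 ± 1.74, *EFNA1* at 27.7 ± 1.59 and *EPHB3* at 18.03 ± 0.23. *EFNB1* at 15.2 ± 0.15 and *EFNB2* at 14.5 ± 1.04 CPM per kilobase were within their spread, and *EPHA1* at 8.93 ± 1.11, *EPHA4* at 4.66 ± 0.15 and *EPHB2* at 1.51 ± 0.05 were the lowest. In DCIS.COM pLOC-*MALINC1*, *EPHB3* stood at 32.7 ± 1.27 CPM per kilobase, behind *EPHA2* at 60.02 ± 2.25 and *EPHB4* at 46.3 ± 0.49 only. *EFNA1* at 18.6 ± 0.21, *EFNB1* at 16.8 ± 0.10, *EFNB2* at 15.2 ± 0.29 and *EPHA1* at 11.6 ± 0.50 CPM per kilobase followed, each apart from its neighbour by more than their SDs, before *EPHA4* at 3.71 ± 0.10 and *EPHB2* at 1.80 ± 0.10. The place of a gene depends on the length used. With all annotated exons as the length, *EPHB4* stood at 22.4 CPM per kilobase in MCF10A pLOC-empty, behind *EPHA2* at 30.7, and at 24.4 in MCF10A pLOC-*MALINC1*, behind *EPHA2* and *EFNB1* at 35.7 and 30.3. With that length *EFNA1* also came behind *EFNB1* in MCF10A pLOC-empty (13.0 against 16.8) and behind *EFNB1* and *EFNB2* in DCIS.COM pLOC-*MALINC1* (13.3 against 16.8 and 15.1), and *EPHA1* came behind *EPHB3* in MCF10A pLOC-empty (5.43 against 6.88). *EPHB2* in particular has a canonical transcript of 11035 bases, so that its value per kilobase is a low reading if shorter forms are expressed.

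The balance of ligand to receptor transcripts differed between the lines. Summed per kilobase, *EFNB1* and *EFNB2* together stood at 50.3 and 51.0 in MCF10A pLOC-empty, 80.8 and 79.9 in MCF10A pLOC-*MALINC1*, 30.3 and 29.1 in DCIS.COM pLOC-empty and 31.8 and 32.1 in DCIS.COM pLOC-*MALINC1*. The 3 EphB receptors together stood at 40.7 and 41.4, 44.4 and 44.6, 68.1 and 70.8, and 79.7 and 82.0 CPM per kilobase in the same order of groups. Ephrin-B ligands exceeded EphB receptors in all 4 MCF10A libraries and lay below them in all 4 DCIS.COM libraries. The ratio of ligands to receptors was 1.24 and 1.23 in MCF10A pLOC-empty, 1.82 and 1.79 in MCF10A pLOC-*MALINC1*, 0.445 and 0.410 in DCIS.COM pLOC-empty and 0.400 and 0.391 in DCIS.COM pLOC-*MALINC1*. With the length of all annotated exons in place of the canonical transcript, the ratio was 1.69 to 2.51 in MCF10A and 0.497 to 0.594 in DCIS.COM.

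Within pairs, the ratio of *EFNB2* to *EPHB4* per kilobase was 1.04 and 1.01 in MCF10A pLOC-empty, 1.42 and 1.35 in MCF10A pLOC-*MALINC1*, 0.313 and 0.270 in DCIS.COM pLOC-empty and 0.325 and 0.329 in DCIS.COM pLOC-*MALINC1*. The ratio of *EFNA1* to *EPHA2* was 0.598 and 0.529, 0.499 and 0.511, 0.461 and 0.421, and 0.304 and 0.315 in the same order. *EPHB3* made up 16.8 to 19.1% of EphB transcripts per kilobase in the MCF10A libraries, 25.7 to 26.2% in DCIS.COM pLOC-empty and 39.9 to 41.0% in DCIS.COM pLOC-*MALINC1*. With the length of all annotated exons, the ratio of *EFNB2* to *EPHB4* was 1.48 to 2.10 in MCF10A and 0.398 to 0.486 in DCIS.COM. That of *EFNA1* to *EPHA2* was 0.375 to 0.450 in MCF10A and 0.228 to 0.347 in DCIS.COM. The *EPHB3* share was then 21.7 to 24.5% in MCF10A, 32.1 to 32.7% in DCIS.COM pLOC-empty and 47.6 to 48.7% in DCIS.COM pLOC-*MALINC1*. These ratios combine levels of single members and no test was made of them.

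**Figure D4:**
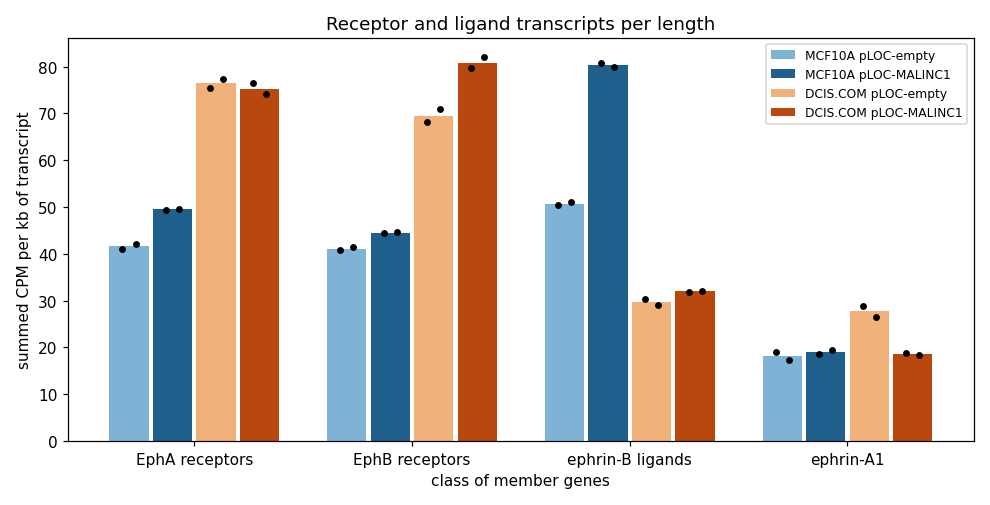
Summed CPM per kilobase of canonical transcript for the 3 EphA receptors, the 3 EphB receptors, the 2 ephrin-B ligands and ephrin-A1, with bars at the group mean of 2 libraries and points for the libraries. Ephrin-B ligands reach 79.9 to 80.8 in MCF10A pLOC-*MALINC1* and stay at 29.1 to 32.1 in DCIS.COM, where the EphB receptors reach 68.1 to 82.0.

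Beyond the 9 members, 7 of 12 other genes of the family had values, the receptors *EPHA3*, *EPHA10* and *EPHB1* and the ligands *EFNA3*, *EFNA4*, *EFNA5* and *EFNB3*. *EPHA3* and *EPHB1* were close to absent from the MCF10A counts. *EPHA3* had 0 reads in all 4 MCF10A libraries, 43 and 48 reads in DCIS.COM pLOC-empty and 11 and 10 reads in DCIS.COM pLOC-*MALINC1*. It was at least 16.2-fold higher in DCIS.COM with pLOC-empty and at least 2.72-fold higher with pLOC-*MALINC1*, taking 3 reads per library as the limit that a count of 0 allows (counting error only). Every gene of the table reached 0.5 CPM in at least 2 libraries, and *EPHA3* did so only in DCIS.COM pLOC-empty. Its lower readings elsewhere, in these limits and in the fall given next, may thus follow in part from that condition. Within DCIS.COM *EPHA3* fell with pLOC-*MALINC1*, at a log2 fold change of -2.55 ± 0.30 (SE, limma, adjusted p = 2.35e-05). It was a DEG, the single one for *MALINC1* among the 16 family genes with values. *PECAM1* moved in the same direction there, from 6.06 to 7.21 CPM with pLOC-empty to 0.0874 to 0.177 CPM with pLOC-*MALINC1*. It was the only 1 of the 5 endothelial markers with values, and its part was not tested.

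*EPHB1* had 0 and 0 reads in MCF10A pLOC-empty, 1 and 0 in MCF10A pLOC-*MALINC1*, 116 and 153 in DCIS.COM pLOC-empty and 289 and 284 in DCIS.COM pLOC-*MALINC1*. It was at least 47.9-fold higher in DCIS.COM with pLOC-empty. Its log2 fold change with pLOC-*MALINC1* within DCIS.COM was 0.42 ± 0.26 (SE, adjusted p = 0.210). *EFNB3* had 3 to 5 reads in the MCF10A libraries and 16 to 32 in those of DCIS.COM. Both B-class genes were thus read mainly in DCIS.COM. Only DCIS.COM libraries brought them to the 0.5 CPM that every gene of the table reached in at least 2 libraries. Their gap between the lines, with the 47.9-fold limit, may follow in part from that condition.

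*EFNA5*, a lipid-anchored ligand, measured 22.9 and 25.6 CPM in MCF10A pLOC-empty and 17.6 and 15.9 CPM in MCF10A pLOC-*MALINC1*. It fell there, at a log2 fold change of -0.53 ± 0.07 (SE, adjusted p = 3.35e-05). In DCIS.COM it measured 44.6 and 45.7 CPM with pLOC-empty and 43.7 and 42.1 CPM with pLOC-*MALINC1*, at -0.07 ± 0.07 (SE, adjusted p = 0.396). *EFNA5* was higher in DCIS.COM than in MCF10A, at 0.90 ± 0.07 with pLOC-empty and 1.35 ± 0.07 with pLOC-*MALINC1* (SE, adjusted p = 5.67e-08 and 1.13e-09). *EFNA4* was higher in DCIS.COM as well, at 0.61 ± 0.16 and 1.12 ± 0.16 (SE, adjusted p = 0.00303 and 2.29e-05), and the first of these calls was lost without MCF10A pLOC-empty replicate 1 or DCIS.COM pLOC-empty replicate 1. *EFNA3* had 0.34 ± 0.12 and 0.33 ± 0.12 (SE, adjusted p = 0.0213 and 0.0249) and did not pass. A read-through transcript shares exons with *EFNA3* and *EFNA4*, so the split of reads between them is uncertain. *EPHA10* was lower in DCIS.COM, at -1.22 ± 0.19 and -0.70 ± 0.19 (SE, adjusted p = 6.39e-05 and 0.00429), and the second call was lost without any one of the 4 pLOC-*MALINC1* libraries.

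Genes that carry Eph and ephrin signals were read in 4 lists with 57 genes, all with values. Of 20 adaptors and GTPase regulators of forward signaling, 10 rose and 1 fell with *MALINC1* in MCF10A, and 6 rose and 7 fell in DCIS.COM. Over all genes the same rule called 21.5% higher and 18.1% lower in MCF10A, and 16.4% higher and 16.7% lower in DCIS.COM, and these shares are the background of all 4 lists. *VAV3*, a guanine nucleotide exchange factor recruited by Eph receptors, measured 8.03 and 5.58 CPM in MCF10A pLOC-empty and 15.3 and 14.9 CPM with pLOC-*MALINC1*, and 20.0 and 24.3 CPM in DCIS.COM pLOC-empty and 12.5 and 13.1 CPM with pLOC-*MALINC1*. It rose in MCF10A, at a log2 fold change of 1.16 ± 0.14 (SE, adjusted p = 2.59e-05), and fell in DCIS.COM, at -0.78 ± 0.14 (SE, adjusted p = 0.000721). The DCIS.COM call was lost without pLOC-empty replicate 2 or pLOC-*MALINC1* replicate 1. *KALRN*, another exchange factor, had 7 and 15 reads in DCIS.COM pLOC-empty and 53 and 54 with pLOC-*MALINC1*, at 1.55 ± 0.37 (SE, adjusted p = 0.00419), a call that was lost without pLOC-empty replicate 1, pLOC-*MALINC1* replicate 1 or pLOC-*MALINC1* replicate 2. *GRB10*, an adaptor, was lower in DCIS.COM than in MCF10A with pLOC-empty, at -1.88 ± 0.06 (SE, adjusted p = 9.05e-12).

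Of 17 kinases and cytoskeletal effectors, 2 rose and 3 fell with *MALINC1* in MCF10A, no more than the share of all genes (21.5% and 18.1%), and 6 rose and 5 fell in DCIS.COM (16.4% and 16.7%). *SRC*, a cytoplasmic tyrosine kinase that acts in forward and reverse signaling, measured 18.2 and 19.9 CPM in MCF10A pLOC-empty and 49.4 and 48.7 CPM with pLOC-*MALINC1*, a rise of 1.36 ± 0.06 on the log2 scale (SE, adjusted p = 2.24e-09). In DCIS.COM it measured 29.9 and 30.8 CPM with pLOC-empty and 40.9 and 39.0 CPM with pLOC-*MALINC1*. Between the lines with pLOC-empty, 3 of the 17 were higher and 12 lower in DCIS.COM, where 37.9% of all genes were higher and 36% lower. *FYN*, a kinase related to *SRC*, was among the lower ones, with 26.2 and 25.8 CPM in MCF10A and 1.03 and 1.24 CPM in DCIS.COM, and *PTK2*, the focal adhesion kinase, had 233 and 233 CPM against 88.0 and 94.7 CPM.

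Of 7 partners of ephrin-B reverse signaling, 2 rose and 2 fell in each line with *MALINC1*, against shares of all genes of 21.5% and 18.1% (MCF10A) or 16.4% and 16.7% (DCIS.COM). *PARD6G*, a polarity protein of the PAR6 family, rose in MCF10A from 1.45 and 1.82 CPM to 5.38 and 5.14 CPM, at 1.65 ± 0.14 (SE, adjusted p = 1.44e-06). *SDCBP*, the PDZ protein syntenin that binds the tail of B ephrins, measured 168 and 172 CPM in MCF10A pLOC-empty and 61.2 and 62.7 CPM in DCIS.COM pLOC-empty, and fell in DCIS.COM with *MALINC1* to 35.5 and 35.1 CPM, at -0.81 ± 0.04 (SE, adjusted p = 6.52e-09). Of 13 genes of cleavage, turnover and dephosphorylation, 3 rose and 3 fell in MCF10A, near the shares of all genes (21.5% and 18.1%), and 1 rose and 4 fell in DCIS.COM (16.4% and 16.7%). *CBLB*, a ubiquitin ligase, was lower in DCIS.COM with pLOC-empty, at -1.88 ± 0.14 (SE, adjusted p = 4.79e-08). Median log2 fold changes of the 4 lists with *MALINC1* ran from -0.01 to 0.26 in MCF10A, where that of all genes was 0.00, and from -0.03 to 0.11 in DCIS.COM, where it was 0.01.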

How the data were processed

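RNA-seq libraries of 76-base reads were made from MCF10A and DCIS.COM cells with pLOC-empty or pLOC-*MALINC1*. Per the methods, the authors aligned reads to hg19 with Rsubread, counted them per gene with featureCounts on UCSC knownGene models, annotated them with org.Hs.eg.db and normalized them with edgeR. Versions, the strand setting and the filter on low genes are not given in the sources used here. The deposited values are log2 CPM with library sizes scaled by the authors (factors 0.945 to 1.11) and a prior of 0.0713 CPM. Whole reads were recovered from the steps of these values (100% of values whole within 0.01 reads). CPM are printed with the prior removed, so low genes show smaller fold changes on the deposited scale.

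Group means of the 4 groups were fitted to the deposited log2 values of all 13842 genes with limma 3.58.1 (R 4.3.3, eBayes with trend, two-sided), over 8 libraries with 4 residual degrees of freedom. The 5 comparisons were fitted together, the p-values of each were adjusted over all genes by Benjamini-Hochberg, and genes at an adjusted p below 0.01 were called, DEGs also at over 2-fold. The members and lists were chosen with earlier results of these data known. Named genes were all members, the other family genes with values, pathway genes that were DEGs for *MALINC1*, and the 2 DEGs of each pathway list that differed most between the lines; *PECAM1* was named as a marker. The script was tested on simulated data. With 200 of 13828 genes changed, the fit recovered 100% of them in the MCF10A comparison and 99.5% in the DCIS.COM comparison. Every planted change was above 2-fold and in genes that were not low, and all genes were given the same dispersion. High recovery was thus close to given by these settings. Changes in low genes or in genes of wider spread were not covered. Recovery at the sizes of change that the members showed with *MALINC1* was not tested. A further 16 settings were tried, 8 of them leaving out 1 library each. Positions and lengths came from GENCODE v44lift37 on GRCh37, promoters from RefSeq. No column of other samples was used. SD measures the spread between the 2 libraries of a group. SE comes from the limma fit, which draws a gene's own spread over the 4 groups toward that of genes at similar levels. That shared part carried 7.98 prior degrees of freedom against 4 residual ones. Limits set from 3 reads cover counting error only.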

Additional observations from a re-analysis of the deposited data

Results flagged for a closer look

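The effect of *MALINC1* differed between the lines for 9 of the 16 genes of the family with values, by the test of the difference itself (DCIS.COM minus MCF10A, log2 scale, limma, adjusted p below 0.01), which called 15.6% of all genes in the positive and 20.3% in the negative direction. It was more positive in DCIS.COM for *EPHB2* (0.89), *EPHB3* (0.74) and *EFNA5* (0.46). It was more negative there for *EPHA2* (-0.28), *EPHB4* (-0.24), *EFNA1* (-0.64), *EFNB1* (-0.70), *EFNB2* (-0.50) and *EPHA3* (-2.55). *EPHA3* had 0 reads in every MCF10A library, so its value is the change within DCIS.COM. With voom weights on the recovered reads its adjusted p was 0.0127. It reached 0.5 CPM, which every gene of the table did in at least 2 libraries, only in DCIS.COM pLOC-empty. The value of *EPHB4* did not pass when any one of 4 libraries was left out. It also did not pass with quantile normalization (adjusted p = 0.0119). The same held with plain library sizes, without the signal recognition particle RNAs and the authors' scaling factors (adjusted p = 0.0184). The value of *EFNA5* did not pass without DCIS.COM pLOC-empty replicate 1 or DCIS.COM pLOC-*MALINC1* replicate 1 (adjusted p = 0.0102 and 0.0110).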

How the results depend on the processing

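Over the 8 alternatives that kept all libraries, 340 member values kept direction and call, 9 lost a call, 8 gained one and 3 changed sign, and 0 members became DEGs for *MALINC1* in either line or for the difference under any of the 16. The count of members called for *MALINC1* in DCIS.COM, 5, was 2 to 4 when 1 library was left out. Signs changed only for values that did not pass. *EPHA4* in the difference between lines had -0.018 with quantile normalization and -0.0056 to 0.12 leaving out 1 library. *EFNA1* between the lines with pLOC-*MALINC1* had 0.059 with quantile normalization and -0.058 to 0.0029 leaving out 1 library. With plain library sizes, without the signal recognition particle RNAs and the authors' scaling factors, that *EFNA1* value was 0.15. Leaving out 1 library gave *EPHA1* -0.23 to 0.026 in the difference. It gave *EFNA1* -0.0040 to 0.13 in MCF10A and *EFNB2* -0.0079 to 0.14 in DCIS.COM. *EPHA2* passed 2-fold between the lines with pLOC-empty under the plain library sizes (1.07) and under quantile normalization (1.05). The cause was not tested.

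With a replicate block, 7 members were called in MCF10A (6 without it) and 4 in DCIS.COM (5), *EPHB4* in MCF10A gained its call (0.13, adjusted p = 0.00852) and *EFNB1* in DCIS.COM lost it (0.15, adjusted p = 0.0130), and no other member call changed. Deviations of same-numbered libraries correlated at -0.16 in MCF10A and 0.11 in DCIS.COM over 10742 genes, so the numbers were not taken as pairs.

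With a pseudocount of 1 CPM, *MALINC1* gave 416 DEGs over all genes in MCF10A (761 on the deposited scale) and 368 in DCIS.COM (627), and with genes at 5 CPM or more 485 and 439. With 2 libraries a group, small changes such as *EFNB1* in DCIS.COM rest on the spread shared by all groups. A library left alone in its group was assumed to vary like the others.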
